A study of Mus musculus with 10 samples.

Results

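Actins and tropomyosins are the polymers of the thin filament of muscle and of the actin cytoskeleton of every cell. The set was chosen by gene symbol, as the muscle and cytoplasmic actins and the tropomyosins, and 8 genes, 4 actins and 4 tropomyosins, were analysed among 45882 gene IDs. A further listed gene, 1 of 9, was not analysed here, so each share of the actins given below is a share of these 4 genes.

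The RNA came from cardiac myocytes of adult C57BL/6 mice, taken from the left ventricle, in 10 libraries that each carry a mouse number of their own. The libraries form 3 groups: 3 of control mice, 4 of CTCF knockout mice and 3 of mice with transverse aortic constriction (TAC), an operation that narrows the aortic arch and so overloads the left ventricle with pressure. CTCF, a DNA-binding zinc finger factor, helps to fold chromatin into loops. The labels give neither the allele or Cre driver of the knockout, nor the genotype of the TAC mice, nor sham surgery, age or time after surgery.

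Actin monomers join head to tail into filaments. Tropomyosin is a coiled coil that lies along the filament, end overlapping end, and in striated muscle it works with troponin to switch myosin binding on and off with calcium. Cardiac α-actin (Actc1) is the actin of the cardiac sarcomere, smooth muscle α-actin (Acta2) is found in vascular smooth muscle, in the embryonic heart and in activated fibroblasts, and β- and γ-actin (Actb, Actg1) are the cytoplasmic actins. Each tropomyosin gene makes several proteins through alternative exons, and Tpm1 makes the main tropomyosin of the mouse heart.

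Levels are given in FPKM, a read density corrected for transcript length and library size, which the authors computed and which was rescaled here between libraries. Differences are log2 fold changes of FPKM + 1, a scale that understates the change of weakly expressed genes, and a gene is said to have risen or fallen only at an adjusted p under 0.05 in limma over 11358 tested genes. Between 58663 and 64693 transcripts were above 0 per library, and Pearson's r across genes was 0.971 to 0.988 within groups and 0.942 to 0.98 between them. Read counts are not among the values, so the number of reads behind a level is not given. Summed levels of 9 ventricular myocyte markers were 28411 to 30969 FPKM in control, 21826 to 28873 in knockout and 22548 to 29061 in TAC libraries. These markers went both ways, as 2 rose and 4 fell in the knockout and 2 rose and 2 fell in TAC by limma. Of all tested genes, 10.6% were called higher and 10.2% lower in the knockout, and 8.08% higher and 7.37% lower in TAC. Summed levels of 11 fibroblast markers were 147 to 285, 269 to 409 and 322 to 382 FPKM. Of the 10 of them that were tested, 5 rose in both comparisons with control and 0 were lower at an unadjusted p under 0.05 in limma, with median log2 differences of 0.83 and 0.77, and the matrix protein Postn rose by 2.67 and 3.18. Those of 10 endothelial markers were 81.6 to 114, 101 to 179 and 119 to 178 FPKM, with 3 called higher in the knockout and 0 in TAC (6 higher at an unadjusted p under 0.05). Those of 10 macrophage and leukocyte markers were 62.6 to 86.4, 71.8 to 119 and 97.5 to 115 FPKM, with 3 and 2 called higher, and those of 7 platelet markers 5.02 to 7.50, 3.69 to 7.17 and 5.72 to 6.73 FPKM. Of 11 skeletal muscle markers, 9 were under 1 FPKM in all libraries, with Myh2 and Myog at 0, and their sum of 24.0 to 37.4, 21.3 to 35.1 and 49.9 to 66.6 FPKM was nearly all Myl1. Of 5 tested atrial markers, 1 rose and 2 fell in both comparisons, with medians of -0.43 and -0.85. The gene that rose was Nppa, which had means of 43.7, 1363 and 1786 FPKM and set the sum of the list (67.9 to 83.5, 979 to 1790 and 1031 to 2397 FPKM), and those that fell were Stard10 and Tbx5. Ctcf itself, the targeted gene, was at 8.81, 8.34 and 6.80 FPKM in control, 2.90, 4.01, 2.60 and 4.42 in knockout and 7.32, 5.70 and 5.22 in TAC libraries. It fell in the knockout by 1.02 on the log2 scale (SE 0.16, adjusted p = 0.00136 in limma).

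Most of the Tpm1 results turn on its mutually exclusive exons and on the choice of its last coding exons, so these are shown before the values. The gene lies on the minus strand at chr9:67022590-67049406 (mm10). The main form, Tpm1-205, holds exons 2b and 6b and joins exon 8 to exon 9a (79 nt, chr9:67029664-67029742) and then to exon 9b (276 nt, chr9:67027892-67028167). Exon 6a (chr9:67032466-67032541) replaces exon 6b (chr9:67031951-67032026) in the minor form Tpm1-203. Both are 76 nt long, and 43 of their 76 bases (56.6%) are identical. The minor forms Tpm1-207 and Tpm1-206 leave out exon 9a and join exon 8 straight to exon 9b. The sequences are in coding direction from the transcripts of GENCODE release M21 (GRCm38), and in the junctions the capitals mark the start of the downstream exon.
Tpm1 exon 6a: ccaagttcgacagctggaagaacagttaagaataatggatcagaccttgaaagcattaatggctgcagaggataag
Tpm1 exon 6b: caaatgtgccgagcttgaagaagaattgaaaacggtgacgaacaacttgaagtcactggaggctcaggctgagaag
Tpm1 exon 9a: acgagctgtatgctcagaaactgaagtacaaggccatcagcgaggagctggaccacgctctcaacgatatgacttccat
Exon 8 to exon 9a junction (Tpm1-205): ttgatgacttagaagACGAGCTGTATGCTC
Exon 8 to exon 9b junction (Tpm1-207): ttgatgacttagaagATAAGTTTCTTTGCT
In Tpm1-205 all of exon 9a is coding and the stop codon, at chr9:67028164-67028166, follows the leading base of exon 9b. In Tpm1-207 the reading frame runs on through exon 9b to a stop codon at chr9:67028076-67028078. The 2 coding sequences, 852 and 861 nt long without their stop codons, thus differ in the tail of the protein, the part of tropomyosin that overlaps the next molecule and binds troponin T.

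In the sarcomeric pool, cardiac actin and α-tropomyosin were among the most abundant messages of the myocytes. Actc1 ranked 13 and Tpm1 16 by mean FPKM among the tested genes. Actc1 (chr2:114047282-114053548) was at 3969, 5077 and 4857 FPKM in control, at 6004, 5660, 6441 and 5013 in knockout and at 5249, 6620 and 6431 in TAC libraries. Every TAC library was above every control library, whereas knockout replicate 4 lay between control replicates 2 and 3. The mean was 4635 ± 587 FPKM (SD, n = 3) in control, 5780 ± 603 (n = 4) in knockout and 6100 ± 743 (n = 3) in TAC. The log2 differences from control, 0.32 for the knockout (SE 0.16, 95% interval -0.02 to 0.66, adjusted p = 0.176 in limma) and 0.40 for TAC (0.03 to 0.76, adjusted p = 0.135), did not pass. Under quantile normalization both passed, at 0.44 (adjusted p = 0.0372) and 0.47 (adjusted p = 0.0438).

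Tpm1 stood at 4140, 5474 and 5677 FPKM in control, 5411, 4788, 5756 and 4240 in knockout and 4245, 5014 and 5853 in TAC libraries. The 3 groups covered nearly the same range. Its log2 difference from control was -0.01 in the knockout (95% interval -0.40 to 0.38, adjusted p = 0.978) and -0.02 in TAC (-0.43 to 0.40, adjusted p = 0.968 in limma), and its sign changed with the scaling.

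Set against each other within a library, the 2 genes separated control from the other groups, a description chosen after their values were seen and not tested. The ratio of Tpm1 to Actc1 FPKM was 1.04, 1.08 and 1.17 in control, 0.901, 0.846, 0.894 and 0.846 in knockout and 0.809, 0.757 and 0.910 in TAC libraries. Tpm1 was the more abundant of the pair in each control library and Actc1 in each of the other 7.

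Over the whole set, 1 of the 8 genes was called in the knockout against control and 1 in TAC against control. This gene was Acta2 both times, and it fell. Of all tested genes, 20.8% were called in the knockout comparison (10.6% higher and 10.2% lower) and 15.5% in the TAC comparison (8.08% higher and 7.37% lower). A count of 1 of 8 is thus close to these shares. Without rescaling, 73.5% of the calls in the knockout comparison and 66.4% of those in TAC were higher, against 50.9% and 52.3% with it, and the median of all genes in the knockout comparison moved from -0.01 to 0.10. The median log2 difference of the 8 genes was 0.13 in the knockout and 0.20 in TAC, beside -0.01 and 0.00 over all tested genes. At an unadjusted p under 0.05, 2 of the 8 genes differed in the knockout and 3 in TAC. Between knockout and TAC, 0 of 8 were called by limma, none reached an unadjusted p under 0.05, and 3.28% of all tested genes were called (1.58% higher and 1.70% lower in the knockout). All knockout and TAC comparisons share the same 3 control libraries.

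**Figure D1:**
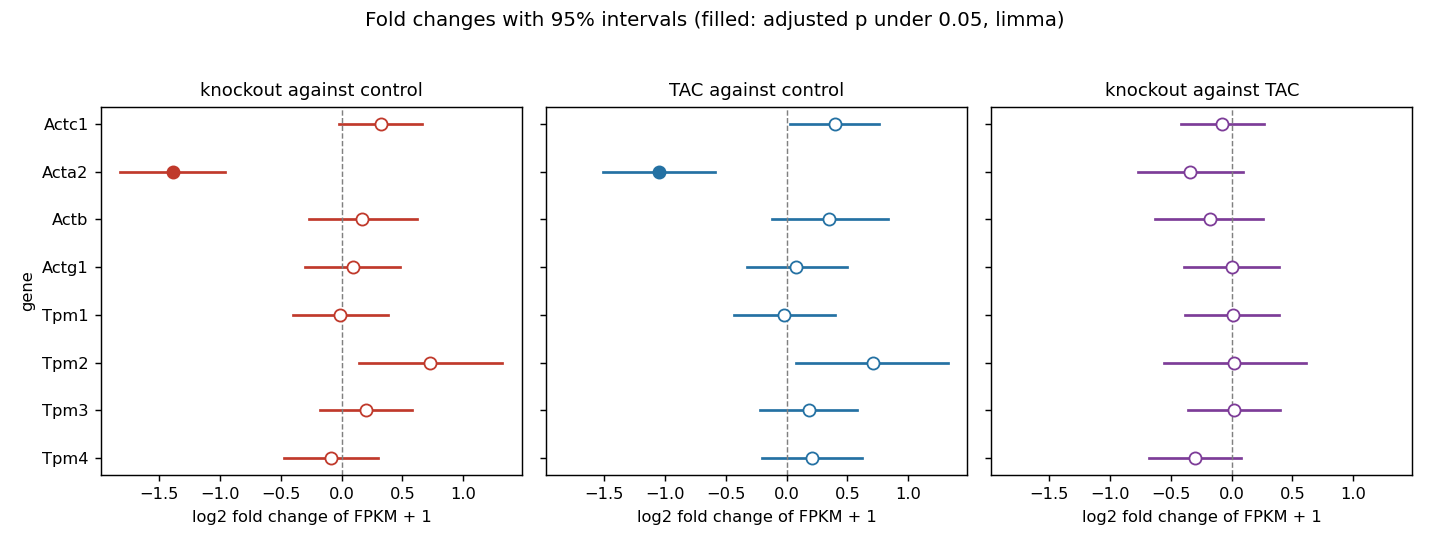
Log2 fold changes of the 8 genes (rows) with 95% intervals in 3 comparisons (panels), and filled circles mark an adjusted p under 0.05 in limma. Acta2, at -1.39 in the knockout and -1.05 in TAC, has the only filled circles, and the intervals of Tpm2 in both comparisons with control, and of Actc1 in TAC, lie above 0.

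Acta2 (chr19:34241090-34255336, minus strand, a single annotated transcript) was at 23.3, 35.1 and 35.0 FPKM in control libraries. It was at 10.2, 10.2, 12.1 and 12.0 FPKM in knockout libraries and at 15.5, 18.8 and 9.92 in TAC libraries. Each of the 7 knockout and TAC libraries was below the lowest control library, and the knockout libraries differed little among themselves. Mean levels were 31.1 ± 6.80 FPKM (SD, n = 3) in control, 11.1 ± 1.06 (n = 4) in knockout and 14.7 ± 4.50 (n = 3) in TAC, which is 35.7% and 47.4% of control. Acta2 fell by 1.39 on the log2 scale in the knockout (SE 0.20, 95% interval -1.82 to -0.96, adjusted p = 0.000667) and by 1.05 in TAC (SE 0.21, -1.51 to -0.59, adjusted p = 0.00730 in limma). Both calls held in all 18 alternatives tried, with adjusted p up to 0.00592 and 0.0347. Between knockout and TAC the difference was -0.34 (95% interval -0.77 to 0.09, adjusted p = 0.396).

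As a share of the 4 actins, Acta2 made up 0.562% to 0.676% of the FPKM in control, 0.163% to 0.228% in knockout and 0.148% to 0.282% in TAC libraries, with no overlap between control and the others. Actc1 held 93.8% to 96.7% of this pool over all libraries, Actb 1.83% to 3.40% and Actg1 1.24% to 2.08%. Acta2 was therefore a minor actin in each library. It ranked 2383 of 11358 tested genes by mean FPKM.

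Acta2 is also a classical marker of vascular smooth muscle, so its values are set beside other markers of smooth muscle and pericytes. Of 14 such genes, 11 were tested. In the knockout 1 rose and 2 fell, and in TAC 2 rose and 2 fell by limma, with median log2 differences of -0.0 and -0.1. Of all tested genes, 10.6% were called higher and 10.2% lower in the knockout, and 8.08% higher and 7.37% lower in TAC. The list as a whole thus showed no common shift. Smooth muscle myosin (Myh11) was at 0.488, 0.696 and 2.95 FPKM in control, 1.30, 1.54, 1.18 and 1.32 in knockout and 1.18, 0.667 and 1.22 in TAC libraries. Transgelin (Tagln), an actin-binding protein of smooth muscle, was at 0.623, 2.15 and 6.24 FPKM in control, 1.78 to 3.03 in knockout and 1.62 to 3.32 in TAC libraries. Control replicate 3 was the highest library for both genes, while Acta2 was as high in control replicate 2 as in replicate 3. The smooth muscle genes Cnn1, Lmod1 and Actg2 were under 1 FPKM in all 10 libraries, and Actg2 was listed at 0 in control replicates 1 and 2 and in TAC replicate 2.

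The 2 markers that fell with Acta2 were far more abundant than these. Abcc9, the sulfonylurea receptor subunit of ATP-sensitive potassium channels that myocytes also make, fell from 64.5 ± 10.9 FPKM in control to 24.2 ± 3.28 in knockout (log2 difference -1.37, adjusted p = 0.000186) and to 32.2 ± 5.72 in TAC (-0.98, adjusted p = 0.00293 in limma). Smoothelin (Smtn), a protein bound to actin filaments, fell from 47.1 ± 6.31 FPKM to 32.1 ± 2.68 (log2 difference -0.53, adjusted p = 0.00787) and to 27.1 ± 2.81 (-0.77, adjusted p = 0.00205). The proteoglycan Cspg4, a pericyte marker, rose, by 1.09 and 1.25 on the log2 scale, and desmin (Des) rose in TAC by 1.01. Desmin made up most of the summed level of the 14 genes, which was 589 to 720 FPKM in control, 658 to 779 in knockout and 869 to 1362 in TAC libraries. In libraries of isolated cells, fewer smooth muscle cells and less RNA per cell cannot be told apart, and the part of such cells in the fall of Acta2 was not tested.

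**Figure D2:**
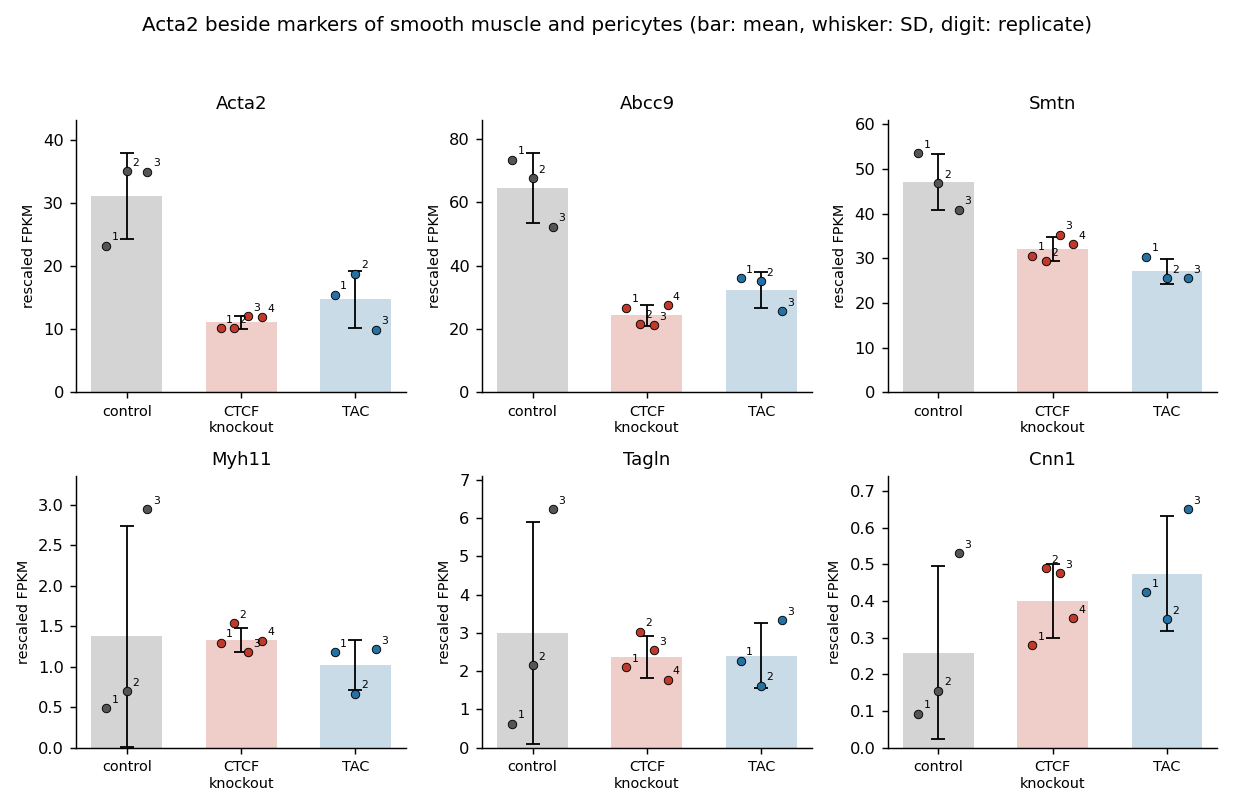
Rescaled FPKM (vertical axes, from 0) of Acta2 and 5 of the 14 markers of smooth muscle and pericytes in the 3 groups. The markers that rose, Cspg4 in knockout and TAC (log2 differences 1.09 and 1.25) and Des in TAC (1.01), are not shown. Dots are libraries numbered by replicate, bars are means and whiskers SD. Acta2, Abcc9 and Smtn have all knockout and TAC libraries below all control libraries, whereas Myh11, Tagln and Cnn1 overlap between groups and are highest among controls in replicate 3.

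The promoters of the actin that fell and of cardiac actin are shown for comparison of their CArG boxes, the sites that bind serum response factor (SRF). The sequences are the 250 bases upstream of the start site in RefSeq (GRCm38.p6), both on the minus strand, Acta2 at chr19:34255374-34255623 and Actc1 at chr2:114052876-114053125. Capitals mark each match to a CArG box, CC and GG around 6 inner bases, either all A or T or with 1 inner C or G.
Acta2: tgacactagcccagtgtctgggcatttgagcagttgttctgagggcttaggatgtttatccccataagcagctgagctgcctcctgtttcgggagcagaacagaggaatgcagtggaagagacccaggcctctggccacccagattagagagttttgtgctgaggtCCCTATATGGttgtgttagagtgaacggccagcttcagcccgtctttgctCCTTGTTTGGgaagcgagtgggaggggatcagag
Actc1: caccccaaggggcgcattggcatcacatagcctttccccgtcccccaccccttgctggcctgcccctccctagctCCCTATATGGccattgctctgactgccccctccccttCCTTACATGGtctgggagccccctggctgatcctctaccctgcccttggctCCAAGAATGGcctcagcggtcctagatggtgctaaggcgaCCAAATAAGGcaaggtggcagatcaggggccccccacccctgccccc
The Actc1 window held 1 box with only A or T inside, 47 to 38 bases upstream of the start, and 3 with 1 inner C or G. The Acta2 window held no box of the strict kind and 2 with 1 inner C or G, 84 to 75 and 34 to 25 bases upstream. The wider form was searched after the sequences were seen. Of the 8 genes, 7 had an entry, with 8 promoters in all, and Actg1 was the other gene with a strict box, 90 to 81 bases upstream. Among 32851 promoters of this length in the table, searched on both strands, 1.47% held a strict box and 7.24% the wider form. CATTCC, the core of the site of TEAD factors, stood on the opposite strand in the Acta2 and Tpm1 windows, beside 12.6% of all promoters, and none of the 8 promoters held TATAAA, beside 12.4%. The list of SRF and its partners held 11 symbols, of which 9 matched a gene here, and all 9 were tested. Shares of all tested genes called higher were 10.6% in the knockout and 8.08% in TAC. In the knockout 0 rose or fell by limma, with 2 higher at an unadjusted p under 0.05 (Srf itself had a log2 difference of 0.28, adjusted p = 0.139), and in TAC the actin-binding SRF activator Abra rose by 1.32 (adjusted p = 0.0425). The call of Abra was lost in 10 of 18 alternatives, including those without control replicate 1 or 2, any knockout replicate, or TAC replicate 2 or 3.

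Among the cytoplasmic actins, Actb was at 82.5, 123 and 176 FPKM in control, 147, 135, 122 and 146 in knockout and 157, 138 and 173 in TAC libraries. The control libraries spanned the values of both other groups. The log2 difference was 0.17 in the knockout (95% interval -0.27 to 0.62, adjusted p = 0.600) and 0.35 in TAC (-0.12 to 0.83, adjusted p = 0.306 in limma). Without control replicate 3 the TAC difference was 0.62 (adjusted p = 0.0454), and without control replicate 1 the knockout difference was -0.10 (adjusted p = 0.709). Actg1 ranged from 61.0 to 108 FPKM in control, 77.0 to 93.6 in knockout and 68.3 to 95.2 in TAC libraries, with differences of 0.09 (adjusted p = 0.778) and 0.08 (adjusted p = 0.814). Stretches of 100 nt of the main Actg1 transcript are shared with 6 other genes over 54.7% of its length, so its level is less certain than that of Actb (1.10%) or of Acta2 and Actc1 (0%).

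Of the minor tropomyosins, Tpm2 encodes β-tropomyosin of muscle, and Tpm3 and Tpm4 encode slow muscle and cytoskeletal forms. Tpm2 was at 2.98, 2.89 and 4.98 FPKM in control, 7.67, 8.19, 7.27 and 3.83 in knockout and 6.71, 9.23 and 4.12 in TAC libraries. Knockout replicate 4 and TAC replicate 3 lay within the control range and the other 5 libraries above it. The log2 difference was 0.73 in the knockout (SE 0.27, 95% interval 0.14 to 1.32, adjusted p = 0.0762) and 0.71 in TAC (0.08 to 1.33, adjusted p = 0.120 in limma). The knockout difference passed in 4 of 18 alternatives. It did so without knockout replicate 4 (0.95, adjusted p = 0.0210 in limma) and with the sex of the mouse as a covariate (0.68, adjusted p = 0.0247). The other passes were without rescaling and with the replicate number as a block. The TAC difference passed only with sex as a covariate (0.92, adjusted p = 0.0152).

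Most of Tpm2 came from the protein-coding forms Tpm2-203 and Tpm2-202. Tpm2-203 was at 1.71, 1.79 and 4.54 FPKM in control, 2.03 to 3.36 in knockout and 2.71 to 3.55 in TAC libraries. Tpm2-202 was at 0.826, 0.592 and 0.320 FPKM in control, 2.29, 3.30, 3.26 and 1.29 in knockout and 2.98, 3.42 and 0.688 in TAC libraries. All knockout libraries were above all control libraries for Tpm2-202, with a log2 difference in level of 1.13 (95% interval 0.37 to 1.89, adjusted p = 0.0519 over 17773 transcripts in limma), against 0.06 for Tpm2-203 (adjusted p = 0.899). Neither form passed.

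Tpm3 was at 8.49, 8.85 and 12.1 FPKM in control, 11.8, 12.2, 8.78 and 12.7 in knockout and 13.5, 8.53 and 11.9 in TAC libraries, and Tpm4 at 10.2, 13.2 and 18.2, then 15.1, 11.8, 10.1 and 14.4, then 15.9, 15.6 and 15.9 FPKM. The groups overlapped, except that every knockout library had less Tpm4 than every TAC library. The log2 differences from control were 0.20 and 0.18 for Tpm3 (adjusted p = 0.456 and 0.555) and -0.09 and 0.21 for Tpm4 (adjusted p = 0.771 and 0.492 in limma). That of Tpm4 between knockout and TAC was -0.30 (95% interval -0.68 to 0.08, adjusted p = 0.403). The main Tpm3 transcript shares 47.9% of its 100-nt stretches with the copy Tpm3-rs7, which was at 0.637 FPKM on average.

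Counting genes whose libraries did not overlap between groups gave 1 of 8 for knockout against control (Acta2), 2 for TAC against control (Acta2 and Actc1) and 1 for knockout against TAC (Tpm4). Over all tested genes the shares were 30.8%, 31.6% and 18.1%.

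**Figure D3:**
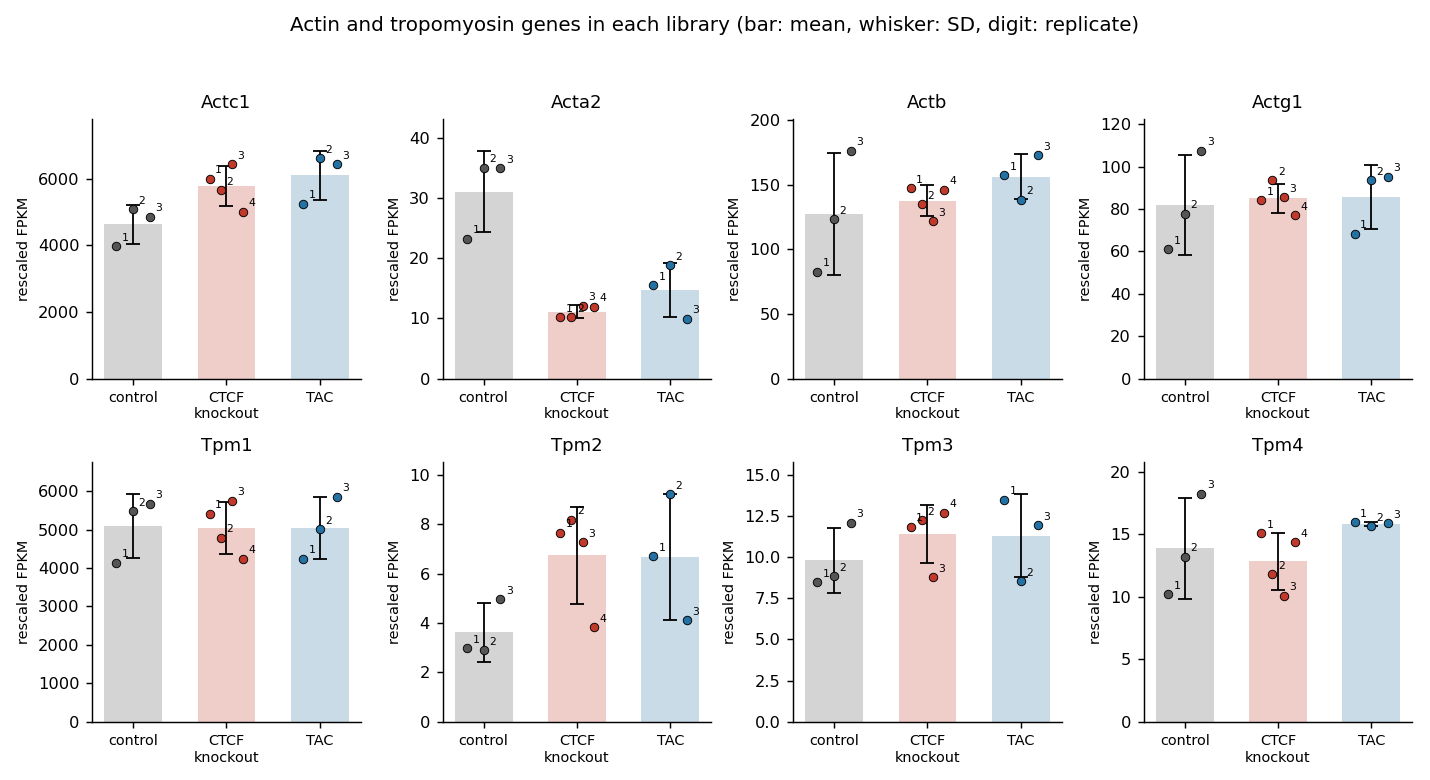
Rescaled FPKM (vertical axes, from 0) of the 4 actins (upper row) and 4 tropomyosins (lower row) in control, CTCF knockout and TAC libraries. Dots are libraries numbered by replicate, bars are means and whiskers SD. Control replicate 1 is the lowest control library for 7 of the 8 genes and replicate 3 the highest for 6 of 8.

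By level, the genes formed tiers. Tpm1 and Actc1 overlapped at 3969 to 6620 FPKM, and Actb and Actg1 at 61.0 to 176 FPKM. Acta2 at 9.92 to 35.1, Tpm4 at 10.1 to 18.2 and Tpm3 at 8.49 to 13.5 FPKM overlapped over the 10 libraries, and Tpm2, at 2.89 to 9.23 FPKM, was lowest in every library but TAC replicate 2, where Tpm3 was lower. The position of Acta2 within its tier moved with the fall given above, since no change of Tpm4 was called. The ratio of Acta2 to Tpm4, a description that was not tested, was 2.28, 2.66 and 1.92 in control, 0.676 to 1.20 in knockout and 0.625 to 1.21 in TAC libraries. Tpm1 held 99.2% to 99.5% of the FPKM of the 4 tropomyosins.

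Within Tpm1, the striated form Tpm1-205 made up 95.8% to 96.5% of the FPKM in control, 94.4% to 95.5% in knockout and 94.4% to 96.1% in TAC libraries. The forms that join exon 8 to exon 9b, each below 5% of the gene and chosen after their values were seen, took a larger share in both other groups than in control. Together Tpm1-207 and Tpm1-206 made up 1.01%, 1.10% and 1.09% of Tpm1 in control, 1.78%, 2.59%, 2.37% and 2.25% in knockout and 1.69%, 1.51% and 2.94% in TAC libraries. The 3 control libraries lay close together and below each of the other 7. By an exact two-sided permutation test over libraries the difference of the means, 1.18 percentage points in the knockout and 0.982 in TAC, had p = 0.0571 and p = 0.10, the smallest values that 3 against 4 and 3 against 3 libraries can give (0.269 and 0.30 after Benjamini-Hochberg adjustment over 33 tests of 11 Tpm1 exon features, which were chosen after the data were seen).

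Nearly all of this share was Tpm1-207. Its level was 39.6, 58.7 and 60.2 FPKM in control, 92.0, 120, 132 and 91.7 in knockout and 69.1, 73.2 and 166 in TAC libraries. TAC replicate 3 stood above the rest of its group. The 95% bounds that Cufflinks lists, which cover the estimate within a library and not the spread between mice, ran from 35.7 to 65.7 FPKM over the control, 84.8 to 140 over the knockout and 63.5 to 176 over the TAC libraries. In a fit of the level of each transcript, added after the data were seen, Tpm1-207 rose in the knockout by 1.03 on the log2 scale (SE 0.30, 95% interval 0.38 to 1.69, adjusted p = 0.0432) and Tpm1-206 by 0.93 (adjusted p = 0.0162). In TAC the differences were 0.85 (adjusted p = 0.123) and 0.71 (adjusted p = 0.0726 in limma). Of 17773 transcripts, 14.6% were called in the knockout comparison and 9.94% in TAC. Of 14 Tpm1 transcripts, 2 were called in the knockout and 0 in TAC by limma, with 2 and 3 at an unadjusted p under 0.05.

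The planned measure was the usage of a transcript, the log2 ratio of its FPKM to that of the other transcripts of its gene. No Tpm1 transcript was called by usage in any comparison (0 of 14 by limma, with 3, 3 and 0 at an unadjusted p under 0.05 in knockout against control, TAC against control and knockout against TAC), beside 3.28%, 0.944% and 0.00908% of 11013 transcripts. For Tpm1-207 the usage difference was 1.06 in the knockout (95% interval 0.49 to 1.63, adjusted p = 0.0529) and 0.88 in TAC (0.27 to 1.49, adjusted p = 0.145 in limma). The knockout value passed when the minimum mean was raised to 5 FPKM (adjusted p = 0.0198) and without TAC replicate 3 (adjusted p = 0.0341). That of Tpm1-206 was 0.94 (adjusted p = 0.0540), and it passed with no minimum (adjusted p = 0.0460) and without control replicate 1 (adjusted p = 0.0377). Tpm1-207 is annotated at 962 nt and Tpm1-205 at 1208 nt, and they also differ in their annotated ends, whose part in these estimates was not tested.

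**Figure D4:**
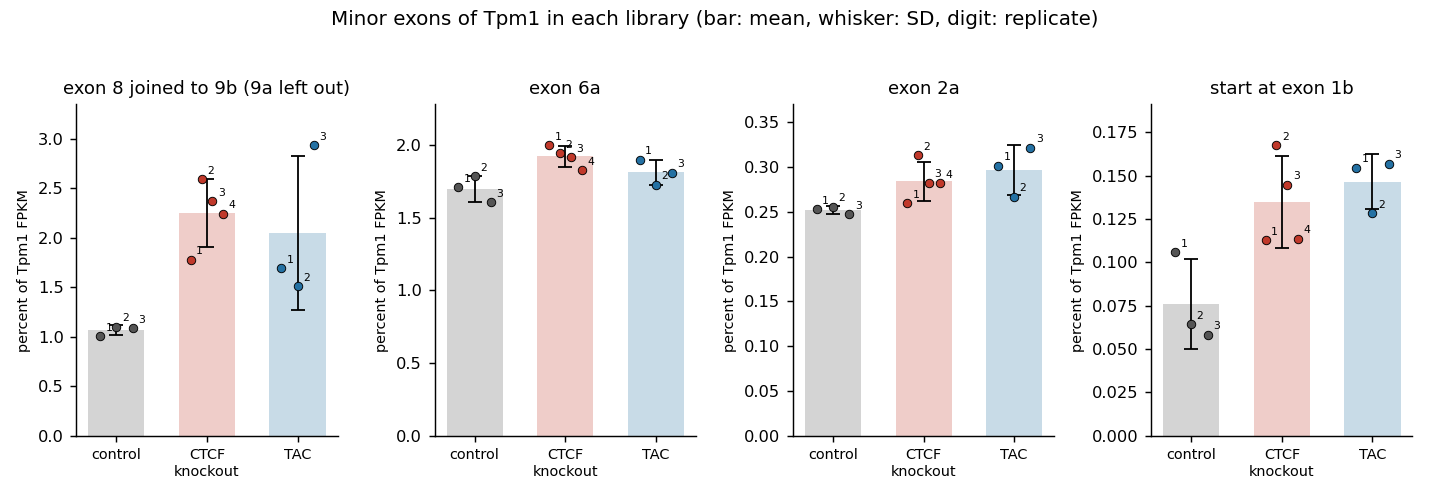
Percent of Tpm1 FPKM (vertical axes, from 0) carried by transcripts that join exon 8 to exon 9b, hold exon 6a, hold exon 2a or start at exon 1b. Dots are libraries numbered by replicate, bars are means and whiskers SD. The share without exon 9a is 1.01% to 1.10% in control and 1.51% to 2.94% in the other 7 libraries.

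Other minor exons of Tpm1 were also compared, and none passed after adjustment. Exon 6a, the alternative to exon 6b, was carried by 1.71%, 1.78% and 1.61% of Tpm1 FPKM in control, 2.00%, 1.94%, 1.92% and 1.83% in knockout and 1.90%, 1.73% and 1.81% in TAC libraries. All knockout libraries were above all control libraries (exact permutation p = 0.0571, adjusted 0.269), and the TAC libraries overlapped both. Exon 2a, the mark of smooth muscle tropomyosin, was carried by 0.247% to 0.256% in control, 0.260% to 0.313% in knockout and 0.267% to 0.322% in TAC libraries. Starts at exon 1b, which give short cytoskeletal forms, made up 0.0582% to 0.106%, 0.113% to 0.168% and 0.128% to 0.157%. These starts include Tpm1-206, already counted above among the forms without exon 9a, so the 2 features are not separate. Mean levels of Tpm1-206 were 1.75, 4.24 and 3.68 FPKM in control, knockout and TAC, within 3.74, 6.82 and 7.39 FPKM for all such starts.

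By level, Actb had 0 of 8 tested transcripts called in the knockout and 1 of 8 in TAC, and Actg1 had 1 and 0 of 8. Over all 17773 transcripts 14.6% and 9.94% were called, and a count of 1 of 8 is close to these shares. The single transcript of Acta2 was called in both (adjusted p = 0.00267 and 0.0180 in limma), as the gene was. Actc1, Tpm2, Tpm3 and Tpm4 had 0 called. Actb-206, a processed transcript of 894 nt, rose in TAC by 0.69 (adjusted p = 0.0468), from 13.6 to 22.7 FPKM in the control libraries to 23.0, 26.1 and 34.3. Actg1-202, a protein-coding form, rose in the knockout by 1.04 (adjusted p = 0.0389 in limma), from 3.17, 6.67 and 5.23 FPKM to 16.0, 6.75, 10.4 and 13.0. The usage of neither passed (adjusted p = 0.390 and 0.119). The main forms Actb-201, Actg1-204, Tpm3-201 and Tpm4-201 were not called, nor were Actb-205, Actg1-201, Actg1-206, Actg1-207, Actg1-208, Actg1-209 and Tpm3-202, the other tested forms with at least 5% of their gene in some group.

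Genes whose level followed a member over the 10 libraries were ranked by Pearson's r of log2(FPKM + 1) among tested protein-coding genes. The ranking is a description, since many genes share the differences between groups and any in depth between libraries. For Acta2 the leading genes were Galnt11 (r = 0.987), Map7d1 (r = 0.965) and the mitochondrially encoded mt-Nd3 (r = 0.960), whose mean was 10495 FPKM in control, 5267 in knockout and 6489 in TAC libraries. For Actc1 they were Twf2 (r = 0.991), Adprhl1 (r = 0.965) and Arf6 (r = 0.961), and for Tpm1 Ndufa12 (r = 0.970), Ak1 (r = 0.968) and Diablo (r = 0.968). Twf2 encodes twinfilin-2, a protein that binds actin monomers and caps filaments. Its mean was 71.1 ± 14.3 FPKM in control, 104 ± 15.4 in knockout and 117 ± 25.6 in TAC libraries.

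Among genes whose products act on actin, in lists chosen with earlier results known, most of the cross-linkers rose in the main fit. Of 19 tested cross-linking and bundling genes, 13 rose and 0 fell in the knockout and 14 rose and 0 fell in TAC by limma, with median log2 differences of 0.56 and 0.60, beside -0.01 and 0.00 over all tested genes, of which 10.6% and 8.08% were called higher. None of the 19 was lower at an unadjusted p under 0.05. Synpo2l, a Z-disc protein that binds α-actinin, had a mean of 21.6 ± 3.75 FPKM in control, 78.2 ± 13.6 in knockout and 126 ± 29.5 in TAC, log2 differences of 1.80 (adjusted p = 0.000106) and 2.47 (adjusted p = 4.21e-05). The Xin repeat protein Xirp2, which binds actin filaments at the intercalated disc, rose from 95.7 ± 6.60 FPKM in control to 211 ± 24.2 in knockout and 435 ± 88.1 in TAC, and the muscle filamin Flnc was at 66.4 ± 11.3, 95.1 ± 18.7 and 194 ± 7.29 FPKM. Both were lower in the knockout than in TAC, by -1.03 (adjusted p = 0.00413) and -1.04 (adjusted p = 0.00754 in limma). The α-actinin Actn1 rose by 0.78 in the knockout (adjusted p = 0.00216) and from 3.64 ± 0.365 FPKM to 8.32 ± 0.946 in TAC (adjusted p = 0.000928), and calponin 2 (Cnn2) rose by 1.08 (adjusted p = 0.000272) and 0.79 (adjusted p = 0.00370 in limma). The count in the knockout was 8 without knockout replicate 2 or control replicate 2. The count in TAC was 8 without TAC replicate 1 and 9 without TAC replicate 2 or control replicate 1 or 2. The fibroblast, endothelial and leukocyte markers given above were also higher, and their part was not tested. The list itself holds the leukocyte plastin Lcp1, which rose by 0.77 (adjusted p = 0.0137) and 0.73 (adjusted p = 0.0309 in limma).

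Genes for the supply and turnover of monomers and for the start of filaments are set beside shares of all tested genes called higher of 10.6% in the knockout and 8.08% in TAC. Of 19 tested genes of monomer binding and turnover, 6 rose in the knockout and 3 in TAC, and 0 fell in either by limma (0 were lower at an unadjusted p under 0.05), with medians of 0.24 and 0.30. Wdr1, which helps cofilin to take filaments apart, rose from 38.2 ± 4.16 FPKM to 61.3 ± 6.18 in knockout (0.67, adjusted p = 0.00243) and 71.3 ± 7.49 in TAC (0.89, adjusted p = 0.000928). Coro1b, a coronin that acts on Arp2/3 branches, rose by 0.71 and 0.69 (adjusted p = 0.00234 and 0.00546), and Twf2 rose in TAC by 0.71 (adjusted p = 0.0310 in limma). Of 17 tested nucleation and elongation genes, 7 rose in the knockout and 3 in TAC, and 0 fell in either by limma (0 were lower at an unadjusted p under 0.05), with medians of 0.09 and 0.21. The Arp2/3 subunit Arpc1b rose in both (0.53 and 0.68, adjusted p = 0.0155 and 0.00886), as did cortactin (Cttn, 0.70 and 0.53, adjusted p = 0.00269 and 0.0213), and the formin Diaph1 rose in TAC by 0.75 (adjusted p = 0.00288 in limma). Fibroblast, endothelial and leukocyte markers were higher beside these lists, with the counts given above, and their part was not tested. In the knockout, the turnover count was 3 without control replicate 1 or knockout replicate 1 or 3 and 2 without knockout replicate 2, and the nucleation count was 2 without control replicate 1. Without rescaling, 10 turnover genes rose in the knockout, and under quantile normalization 5 rose in TAC.

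Of 15 tested regulators of the thin filament and its length, 1 rose and 2 fell in the knockout, and 3 rose and 3 fell in TAC, with medians of 0.15 and 0.04. Of all tested genes, 10.6% were called higher and 10.2% lower in the knockout, and 8.08% higher and 7.37% lower in TAC, so the knockout count is near that background. Nrap, which helps to assemble new myofibrils, rose from 147 ± 3.69 FPKM in control to 269 ± 15.6 in knockout (0.86, adjusted p = 0.000586) and 356 ± 57.4 in TAC (1.25, adjusted p = 0.000155). Tropomodulin 4 (Tmod4), a cap of the pointed end, fell from 7.07 ± 1.45 to 2.56 ± 0.449 FPKM in the knockout (-1.17, adjusted p = 0.000286) and to 4.52 ± 0.623 in TAC (-0.54, adjusted p = 0.0358 in limma). Cardiac troponin I (Tnni3) fell from 3836 ± 267 FPKM to 2617 ± 362 in the knockout (-0.56, adjusted p = 0.0224) and 2674 ± 348 in TAC (-0.53, adjusted p = 0.0474). The call of Tnni3 was kept in 13 of 18 alternatives for the knockout and in 3 of 18 for TAC. Nebulin (Neb), a ruler of filament length, rose in TAC from 0.945 ± 0.366 to 2.56 ± 0.513 FPKM (0.88, adjusted p = 0.00453), and the capping subunit Capzb rose by 0.49 (adjusted p = 0.0175). Slow troponin T (Tnnt1) fell in TAC by 0.56 (adjusted p = 0.0297) and was higher in the knockout than in TAC by 0.95 (adjusted p = 0.00620 in limma). Without rescaling 3 genes of this list rose and 1 fell in the knockout, and 0 fell in TAC. The 3 falls in TAC were 0 without TAC replicate 1 or 3 or control replicate 2, and 1 without TAC replicate 2 or control replicate 1 or 3. The 2 falls in the knockout were 1 without knockout replicate 2 or control replicate 2 or 3, and 2 genes rose there without control replicate 3.

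Of 7 tested genes among other actins and actin-like proteins, 1 fell in the knockout, Actr6, by 0.40 (adjusted p = 0.0143), and 0 changed in TAC by limma, with 2 at an unadjusted p under 0.05. Beside the 10.2% of all tested genes called lower in the knockout, 1 of 7 is near background. In TAC 15.5% of all tested genes were called. The call of Actr6, an actin-related protein of a chromatin remodeller, was kept in 14 of the 17 alternatives that tested it. Those that lost it included the fits without control replicate 3 and without rescaling.

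**Figure D5:**
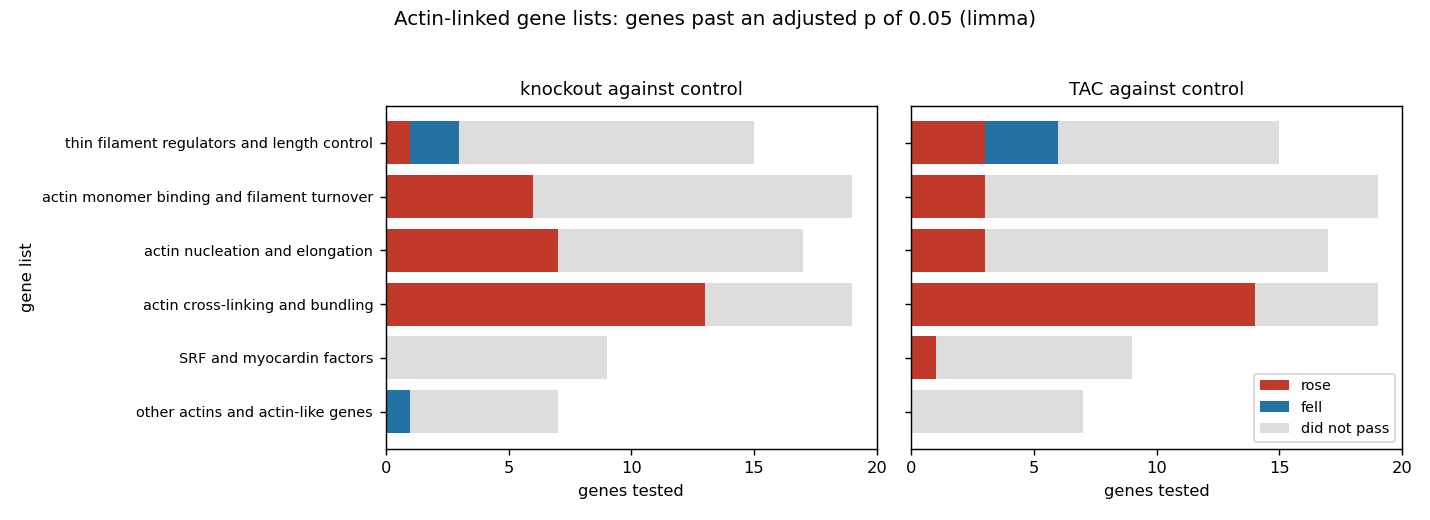
Number of tested genes (horizontal axes) of 6 actin-linked lists (rows) that rose, fell or did not pass in knockout (left) and TAC (right) against control, by limma at an adjusted p under 0.05. Cross-linking and bundling genes have 13 and 14 risen members of 19, and lists of filament turnover and nucleation have no fallen member.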

How the data were processed

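RNA of isolated left ventricular myocytes was sequenced in 10 libraries (3 control, 4 CTCF knockout, 3 TAC), each from its own mouse per the labels. Total RNA was depleted of ribosomal RNA and made into stranded paired-end libraries, per the labels' protocols. The deposited files give FPKM per transcript with 95% bounds, which the authors made with TopHat2 2.1.0, Bowtie2 and Cufflinks 2.2.1 on mm10, per the submitters' processing notes. Cufflinks divides reads among overlapping transcripts, so transcript values are estimates. The files give no read counts, but a coverage and 95% bounds per transcript. The number of reads behind a level was not worked out from these.

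FPKM was summed per gene ID and rescaled by the median of ratios over genes with a mean of at least 1 FPKM. Gene IDs whose longest transcript was under 300 nt (7765), and 22 that were at 0 in some libraries with a median of at least 100 FPKM in others, were set apart. Genes with a mean of at least 1 FPKM (11358) were tested on log2(FPKM + 1) with limma 3.58.1 (trend, all 10 libraries, R 4.3.3), with Benjamini-Hochberg adjustment over all tested genes and calls at an adjusted p under 0.05. The procedure was tested on simulated data. Usage was fitted in the same way over 11013 transcripts of 3725 genes. Exact permutation tests used SciPy 1.17.1 with Python 3.11.15. Alternatives were other scalings, pseudocount, filter, sex as a covariate, the replicate number as a block, only the groups compared, and leaving out each library. Sex was not taken from the labels but inferred from Xist against the Y-linked genes Ddx3y, Uty, Eif2s3y and Kdm5d.

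The genes and lists were chosen with earlier results of these data known. The naming rule took all analysed members, their transcripts with at least 5% of the gene in any group (those too low to test are not described), up to 4 called genes per list and comparison by adjusted p, and the 3 genes most like Acta2, Actc1 and Tpm1. Named outside it, after their values were seen, were Tpm1-203, Tpm1-206, Tpm1-207, and some marker and list genes, among them Myh11, Tagln, Cnn1, Lmod1, Actg2, Srf and Lcp1. Fits of transcript levels, tests of Tpm1 exon shares, list counts under the alternatives and the wider CArG form were added after the data were seen. A planned share of a gene not analysed here was not computed. Promoters are from RefSeq (GRCm38.p6).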

Additional observations from a re-analysis of the deposited data

How the results depend on the processing

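The calls of Acta2 kept their direction and passed in all 18 alternatives in both comparisons with control. Genes called in the knockout numbered 2362, and 1487 at a minimum mean of 5 FPKM. In TAC they numbered 1755, with 1167 at that minimum and 1127 with only the 2 groups in the fit. Between knockout and TAC they numbered 372, with 195 at no filter on the mean, 200 with the replicate block, 233 with sex as a covariate, and 133 to 443 with 1 library left out. Members called in the knockout were 2 without rescaling, under quantile normalization, with the replicate block and with sex as a covariate, and 1 to 2 with 1 library left out. In TAC they were 2 under quantile normalization and with sex as a covariate, and 1 to 2 with 1 library left out. Tpm1 transcripts called by usage in the knockout were 1 with no filter and 1 at a minimum of 5 FPKM, and 0 to 1 with 1 library left out.

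Signs changed for differences that did not pass. For Tpm1 the knockout difference was 0.12 without rescaling, 0.071 with the replicate block and -0.15 to 0.075 with 1 library left out. Its TAC difference was 0.049 without rescaling, 0.13 under quantile normalization, 0.0054 with sex as a covariate and -0.16 to 0.10 with 1 library left out. Between knockout and TAC it was -0.14 under quantile normalization, -0.020 with sex as a covariate and -0.11 to 0.12 with 1 library left out. Also between knockout and TAC, sex as a covariate gave -0.062 for Actg1 and -0.24 for Tpm2, and the replicate block gave -0.033 for Tpm3. Tpm4 in the knockout was 0.035 without rescaling, and usage of Tpm1-203 in TAC was -0.077 under quantile normalization. With 1 library left out, the knockout differences were -0.10 to 0.44 for Actb, -0.10 to 0.30 for Actg1 and -0.27 to 0.12 for Tpm4, and the TAC differences -0.11 to 0.29 for Actg1 and -0.015 to 0.062 for usage of Tpm1-203. Between knockout and TAC they were -0.15 to 0.084 for Actg1, -0.24 to 0.26 for Tpm2, -0.16 to 0.15 for Tpm3 and -0.0075 to 0.48 for usage of Tpm1-207. The cause was not tested.

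Deviations from the group mean correlated at r from -0.36 to 0.33 between libraries with the same replicate number. With 3 or 4 libraries per group such values cannot decide whether the numbers pair the mice. The replicate block added Tpm2 in the knockout (0.94, adjusted p = 0.0369 in limma). Sets of 3 or 4 mice limit the precision of the less abundant genes, and the number of reads behind their levels is not given. Planned share comparisons of 1 member not analysed here were not run.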
